A study of Mus musculus with 4 samples.

Results

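Of the 31053 genes in the deposited count matrices, 6 were examined in all 4 single-nucleus RNA-seq libraries of the mouse brain: the ligand genes Vegfa, Vegfb and Pgf and the receptor genes Flt1, Kdr and Nrp1. They were taken by name as members of the VEGF-A family, with no cut on a measured value. Earlier results of these data were known when they were chosen. The question put to the data was which cell types carry the ligand transcripts and which carry the receptor transcripts, and how both vary with the region label and the viral vector label. Each library came from the pooled tissue of 5 male C57BL/6J mice aged 8 weeks, and the cortex and striatum libraries of a vector came from the same pool of mice. AAV9 vector had been given into the cisterna magna, the fluid space behind the cerebellum, and it carried either a control (AAV-CTRL, soluble VEGFR-3 domains fused to immunoglobulin that do not bind ligand) or full-length mouse VEGF-C (AAV-VEGF-C). There was 1 library for each vector in tissue labelled cortex and 1 for each in tissue labelled striatum. Lists of 4 values give the cortex libraries first and then the striatum libraries, with AAV-CTRL before AAV-VEGF-C within each. Because a group was 1 library of pooled mice, no difference had a replicate check and no test between groups was made. The 95% intervals cover counting error only.

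VEGF-A, VEGF-B and placental growth factor are secreted dimers that act on receptor tyrosine kinases of blood vessel endothelium. VEGF-A binds VEGFR-1 (Flt1) and VEGFR-2 (Kdr), whereas VEGF-B and placental growth factor bind VEGFR-1 and not VEGFR-2. VEGFR-2 transmits most of the mitogenic and permeability signal, VEGFR-1 binds VEGF-A more tightly with weaker kinase activity and is also made as a soluble form that traps ligand, and neuropilin-1 (Nrp1) is a co-receptor that serves class 3 semaphorins as well. VEGF-C, the transgene product, signals chiefly through VEGFR-3 (Flt4), the receptor of lymphatic endothelium. The paper that reported these data states that injected native VEGF-C protein raised phosphorylation of VEGFR-2 as well as VEGFR-3 in the brain.

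The deposited matrices held 17168, 20370, 23724 and 17466 nuclei, and 63165470, 78332657, 77253372 and 67773329 unique molecular identifiers (UMIs, each counted as 1 captured transcript). After called doublets and doublet-rich clusters were left out, 73103 of 78728 nuclei were kept, 16259, 18993, 21393 and 16458 per library, with a median of 2501, 2665, 2129 and 2545 UMIs. Between 76 and 118 barcodes were shared by any 2 libraries, at most 0.658% of a library. The striatum label did not match the striatal genes. Ppp1r1b (DARPP-32 of striatal projection neurons) stood at 63.1, 75.7, 18.8 and 18.5 counts per 1000000 UMIs (CPM), and nuclei resembling striatal projection neurons made up 8.33%, 8.53%, 2.51% and 2.42% of kept nuclei. Both were thus lower in the libraries labelled striatum. Genes of cortical neurons ran with the labels: Slc17a7, the vesicular glutamate transporter of cortical excitatory neurons, stood at 420, 461, 59.9 and 42.7 CPM, and excitatory neuron-like nuclei made up 33.1%, 33.6%, 0.776% and 0.316%. The libraries labelled striatum also differed from each other. Olfactory sensory neuron-like nuclei numbered 3, 6, 240 and 13, neuroblast-like nuclei 119, 110, 441 and 30 and fibroblast-like nuclei 323, 269, 822 and 332. Thalamic neuron-like nuclei numbered 2, 23, 1066 and 1008. Ratios over all nuclei below therefore compare libraries of unlike make-up. The wording "labelled" below marks that the dissected tissue was taken from the label alone.

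Nuclei were grouped by clustering on genes other than the 6 members, and clusters were named from marker genes that also excluded them, so the level of a member in a class did not enter the making of that class. The level of a member is its UMIs summed over the nuclei of a class and scaled to CPM. In 3 clusters of vascular and immune nuclei the markers of more than 1 class were high together, and these were kept as a class called mixed vascular. Oligodendrocyte-like nuclei were used as the reference for free RNA, which is captured with every nucleus in droplet data. The reference is a level per UMI, and depth differed by class. Median UMIs were 1617.5, 1624, 1672 and 2032 in oligodendrocyte-like nuclei and 4133, 4212.5, 4679.5 and 2803.5 in excitatory neuron-like nuclei. A level below the reference in deeper nuclei therefore does not place them at the level of free RNA.

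The kept nuclei held 7092 UMIs of Vegfa, 7477 of Vegfb, 1011 of Pgf, 39311 of Flt1, 3411 of Kdr and 27159 of Nrp1. Over all kept nuclei of a library, Flt1 stood at 158.5, 127.5, 164.1 and 163.6 CPM and Kdr at 13.8, 12.2, 14.3 and 12.7 CPM. Where introns are counted, counts of nuclear RNA rise with the length of a gene. The Flt1 gene spans 164.408 kb against 45.632 kb for Kdr and 15.377 kb for Vegfa, so levels are compared below between classes and libraries for 1 gene at a time and not between genes.

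Vegfa (17:46016993-46032369 on the minus strand of GRCm38, protein-coding), the ligand of both tyrosine kinase receptors, was highest in astrocyte-like nuclei. Its level there was 118 CPM (107 to 129), 116 CPM (106 to 126), 112 CPM (103 to 121) and 109 CPM (99.1 to 119) in 1908, 2363, 2931 and 2018 nuclei. The 4 libraries lay within each other's intervals, and the lowest of them lay above the highest of any other class measured in all 4. OPC-like nuclei (oligodendrocyte precursors) followed with 94.7, 72.9, 73.5 and 64.3 CPM and choroid plexus-like nuclei with 81.6, 50.6, 72.8 and 59.1 CPM. The ranges of OPC-like and choroid plexus-like nuclei overlapped, so their order was not resolved. Oligodendrocyte-like nuclei, the free RNA reference, held 24.8, 16.1, 23.7 and 21.9 CPM, and endothelial-like nuclei 13.7, 12.2, 23.2 and 20.6 CPM. Vegfa in endothelial-like nuclei was therefore at or below that reference in each library.

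Among neurons, Sst/Pvalb interneuron-like nuclei carried 34.7, 38.2, 19.6 and 32.9 CPM of Vegfa, above the reference in 3 of 4 libraries. Excitatory neuron-like nuclei carried 13.3, 12.3, 12.9 and 14.6 CPM, below the level of oligodendrocyte-like nuclei in all 4, at a greater median depth. A small neuronal cluster led by Avp and Oxt, the vasopressin and oxytocin genes of hypothalamic neurosecretory cells, reached 63.1 CPM. The astrocyte-like class consisted of a cluster led by Gldc and Mfge8, mostly from libraries labelled cortex, and a cluster led by Agt and Slc6a11, mostly from libraries labelled striatum. Their Vegfa levels were 115 and 111 CPM, pooled over libraries that fill them unequally. Within a library the Gldc cluster held 120, 117, 101 and 89.4 CPM and the Agt cluster 65.3, 83.4, 114 and 111 CPM, so in each library the cluster with more nuclei had the higher level. Only 76 and 68 nuclei of the Agt cluster came from the libraries labelled cortex.

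With every nucleus thinned to 1000 UMIs, 10.7%, 10.6%, 10.2% and 9.96% of astrocyte-like nuclei had a Vegfa UMI, against 2.5%, 1.45%, 2.49% and 2.3% of oligodendrocyte-like nuclei. Without thinning the shares in astrocyte-like nuclei were 18.3%, 18.2%, 17.8% and 19.3% at median depths of 1794, 1829, 1784 and 2079.5 UMIs. Glial classes supplied 43.6%, 42.1%, 40.2% and 37.3% of the Vegfa UMIs of a library while holding 13.3%, 13.4%, 20.6% and 20.9% of all UMIs. Astrocyte-like nuclei alone supplied 30.5%, 32.3%, 27.8% and 24.3%. Neurons, which held most UMIs of every library, still gave 49.4%, 51.8%, 50.6% and 55.9% of Vegfa UMIs at their lower level per UMI.

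Vegfb (19:6982473-6987651, minus strand, protein-coding), a ligand of VEGFR-1 linked to fatty acid handling, was spread over all classes. Its level was 41.5, 49.8, 48.7 and 57.6 CPM in astrocyte-like nuclei, 29.3, 52.5, 43.5 and 42.1 CPM in endothelial-like nuclei and 53.5, 71.8, 49.6 and 41.9 CPM in macrophage-like nuclei. Oligodendrocyte-like nuclei held 24.8, 27.9, 33 and 40.1 CPM and excitatory neuron-like nuclei 17.6, 21.5, 18.8 and 21.8 CPM. Astrocyte-like and macrophage-like nuclei were thus above excitatory neuron-like nuclei in every library, but every class overlapped its neighbour in the order of levels, so no single class stood apart as the source.

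Pgf (12:85166635-85177790, minus strand, protein-coding), which encodes placental growth factor, had the fewest UMIs of the 6 and, by class, was highest in smooth muscle-like nuclei. Smooth muscle-like nuclei held 42.7, 53.2, 47.4 and 48.7 CPM, from 11, 19, 21 and 23 UMIs, and the 4 intervals overlapped. These nuclei also held fibroblast markers at 39.0% of their fibroblast-like level and pericyte markers at 42.4% of their pericyte-like level. Whether RNA of those classes added to their Pgf level was not tested. Pericyte-like nuclei held 14.3, 21.5, 28.3 and 7.99 CPM and fibroblast-like nuclei 15.4, 48.1, 21.7 and 21.7 CPM. Oligodendrocyte-like nuclei held 2.09, 3.57, 2.87 and 3.42 CPM. Within the fibroblast-like class, 333 nuclei led by Slc47a1, Adamtsl3 and Bnc2 carried 78.5 CPM of Pgf, against 5.71 CPM in 1189 nuclei led by Ranbp3l and Slc6a20a. By library the first cluster held 50.7, 162, 69.2 and 60.1 CPM, with the highest value in cortex AAV-VEGF-C, and its pooled level lay above the 48.4 CPM of smooth muscle-like nuclei. Vascular classes supplied 19.9%, 26.3%, 27.2% and 20.3% of Pgf UMIs, so most Pgf UMIs lay outside the vascular classes.

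The sequences before the starts of the receptor genes Flt1 and Kdr, the members most restricted to vessels, are shown because ETS factors, which bind a GGAA core, are general regulators of endothelial genes. Each line gives the 250 bases before the RefSeq start on GRCm38, on the minus strand and written 5′ to 3′ along the gene, from chr5:147726012-147726261 for Flt1 and chr5:75978456-75978705 for Kdr. Capitals mark GGAA or its reverse complement TTCC.
Flt1: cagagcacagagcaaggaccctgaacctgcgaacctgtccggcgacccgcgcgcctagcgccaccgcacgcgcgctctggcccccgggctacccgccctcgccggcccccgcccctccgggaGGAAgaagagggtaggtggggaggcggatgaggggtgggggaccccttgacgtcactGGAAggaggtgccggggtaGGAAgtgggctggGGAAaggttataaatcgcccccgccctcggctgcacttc
Kdr: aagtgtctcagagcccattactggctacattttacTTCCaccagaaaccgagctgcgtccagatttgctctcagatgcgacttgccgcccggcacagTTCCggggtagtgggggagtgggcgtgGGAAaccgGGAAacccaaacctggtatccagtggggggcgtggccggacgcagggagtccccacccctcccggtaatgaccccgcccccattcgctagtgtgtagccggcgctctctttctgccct
Both windows held 4 copies on the 2 strands, while 93.4% of 32851 RefSeq windows of that length held at least 1 and the median was 3, so the copies did not set these genes apart. The hypoxia response core ACGTG (both strands) had no match in either window and was in 16.6% of all windows. It had 1 match in the window of the downstream Vegfa start (17:46025164-46025413) and none in that of the upstream start (17:46032378-46032627). The bases checked after the downstream start were not found in an annotated Vegfa transcript, while those after the upstream start were. GGGCGG, the GC box bound by SP1, had 3 matches in the Flt1 window and 2 in the Kdr window and was in 32.7% of all windows. A match is a string of letters and was not tested as a site.

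Flt1 (5:147561604-147726011, minus strand, protein-coding), the VEGFR-1 gene, was highest in endothelial-like and mixed vascular nuclei. Endothelial-like nuclei held 3551 CPM (3436 to 3668), 3289 CPM (3181 to 3399), 3467 CPM (3371 to 3565) and 3646 CPM (3539 to 3755). Mixed vascular nuclei held 3922, 3371, 3333 and 3324 CPM, so their range overlapped that of endothelial-like nuclei. Smooth muscle-like nuclei held 1885, 2014, 2096 and 1691 CPM and pericyte-like nuclei 570, 551, 493 and 503 CPM. Fibroblast-like nuclei held 115, 69.5, 126 and 91.6 CPM and choroid plexus-like nuclei between 65.8 and 118 CPM. Oligodendrocyte-like nuclei, the reference, had 21.6, 14.9, 22.6 and 20.4 CPM, and astrocyte-like nuclei 18.4, 13.9, 28.7 and 21.8 CPM. The 3′ counts do not separate transcripts for the membrane and the soluble form of VEGFR-1.

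The levels in mural classes were set beside the endothelial markers carried by the same nuclei. The 14 endothelial markers, all with UMIs in each of these classes, summed to 62.7% of their endothelial-like level in smooth muscle-like nuclei, where Flt1 was at 54.9%. In pericyte-like nuclei the markers were at 11.7% and Flt1 at 15.1%, and in mixed vascular nuclei at 103% and 99.8%. In fibroblast-like nuclei they were at 4.89% and 3.09%, and in choroid plexus-like nuclei at 7.73% and 2.78%. Flt1 thus followed the endothelial markers across these classes, and whether its UMIs in mural classes came from endothelial RNA was not tested.

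Among endothelial-like nuclei Flt1 varied by cluster. The cluster led by Slco1a4, the brain capillary transporter, Cldn5 and Mecom, mostly from libraries labelled striatum, held 4090 CPM. The cluster that also ranked Hmcn1 and Cxcl12 high, mostly from libraries labelled cortex, held 3321 CPM. The 452 nuclei led by Eln, Fbln5 and Bmx, genes of arterial endothelium, held 1495 CPM. In the mixed vascular class, the cluster with Vtn, Rgs5 and Cldn5 held 4121 CPM and the cluster with Vwf, Icam1 and Vcam1 held 1614 CPM. Beside them, the summed endothelial markers stood at 114% of the endothelial-like level in the Slco1a4 and Mecom cluster, 94.2% in the Hmcn1 cluster and 59.4% in the Eln cluster, and at 116% and 66.2% in the Vtn and the Vwf cluster. The Vwf cluster also held fibroblast markers at 53.1% of their fibroblast-like level. Clusters with lower Flt1 thus had lower endothelial markers as well, and the part of these in the Flt1 difference was not tested. A Flt1 UMI was present in 88.8%, 88.6%, 89.1% and 88.9% of thinned endothelial-like nuclei, against 2.25%, 1.3%, 2.14% and 1.8% of oligodendrocyte-like nuclei. Without thinning, the endothelial-like shares were 88.8%, 90.4%, 87.5% and 91.4%. Vascular classes supplied 91.3%, 91.3%, 89.0% and 90.6% of Flt1 UMIs while holding 5.4%, 4.6%, 7.4% and 6.5% of all UMIs.

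Kdr (5:75932827-75978458, minus strand, protein-coding), the VEGFR-2 gene, had the same leading classes. Endothelial-like nuclei held 277 CPM (245 to 311), 251 CPM (222 to 283), 250 CPM (225 to 277) and 264 CPM (236 to 295), with all intervals overlapping. Mixed vascular nuclei held 361, 357, 259 and 246 CPM, and the libraries labelled cortex were the higher ones. Pericyte-like nuclei held 57.0, 42.9, 73.6 and 24.0 CPM and oligodendrocyte-like nuclei 3.49, 3.27, 5.89 and 4.46 CPM. In smooth muscle-like nuclei Kdr was at 20.1% of its endothelial-like level, where Flt1 was at 54.9% and the endothelial markers at 62.7%. Kdr lay above the markers in pericyte-like (19.9% and 11.7%), fibroblast-like (10.6% and 4.89%), choroid plexus-like (10.8% and 7.73%) and mixed vascular nuclei (118% and 103%). It lay below them in macrophage-like (1.15% and 2.64%) and astrocyte-like nuclei (1.30% and 1.56%). The source of these Kdr UMIs was not tested. The arterial-marker cluster with Eln and Bmx held 81.2 CPM, below the 296 and 268 CPM of the other endothelial-like clusters. Vascular classes supplied 86.7%, 83.8%, 76.4% and 82.6% of Kdr UMIs. Of thinned endothelial-like nuclei 23%, 19.6%, 19.4% and 18.5% had a Kdr UMI, against 0.305%, 0.364%, 0.616% and 0.284% of oligodendrocyte-like nuclei. Without thinning the endothelial-like shares were 30.2%, 27.9%, 27.7% and 33.6%, at median depths of 1432, 1394, 1374 and 1666 UMIs.

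Nrp1 (8:128358604-128503363, plus strand, protein-coding), the co-receptor, was not restricted to vessels. Macrophage-like nuclei held the most, with 481 CPM (351 to 644), 423 CPM (317 to 553), 549 CPM (466 to 642) and 347 CPM (263 to 448). Fibroblast-like nuclei held 245, 177, 231 and 248 CPM, endothelial-like nuclei 211, 192, 223 and 237 CPM and microglia-like nuclei 158, 168, 200 and 172 CPM. Oligodendrocyte-like nuclei held 18.8, 15.2, 19.1 and 13.2 CPM. The endothelial markers in macrophage-like nuclei were at 2.64% of their endothelial-like level, while Nrp1 was at 214%, so the macrophage-like level did not move with them. Fibroblast-like nuclei differed among themselves as for Pgf: the cluster with Slc47a1 and Adamtsl3 held 625 CPM of Nrp1 and that with Ranbp3l and Slc6a20a held 72.6 CPM.

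In neurons Nrp1 was high in particular clusters. Those led by Spink8 and Fibcd1, by C1ql2 and Glis3, and by Avp and Oxt held 389, 366 and 341 CPM. Neurons together supplied 81.5%, 83.4%, 66.1% and 68.1% of Nrp1 UMIs, near the 78.0%, 79.1%, 67.4% and 69.1% of all UMIs that they held. Vascular classes supplied 10.1%, 7.6%, 14.1% and 14.9% of Nrp1 UMIs, above their 5.4%, 4.6%, 7.4% and 6.5% of all UMIs. In thinned endothelial-like nuclei 18.5%, 15.1%, 19.8% and 19.6% had a Nrp1 UMI, against 2.07%, 1.77%, 1.82% and 1.2% of oligodendrocyte-like nuclei. Without thinning the endothelial-like shares were 27.6%, 22.3%, 25.3% and 28.7%.

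**Figure D1:**
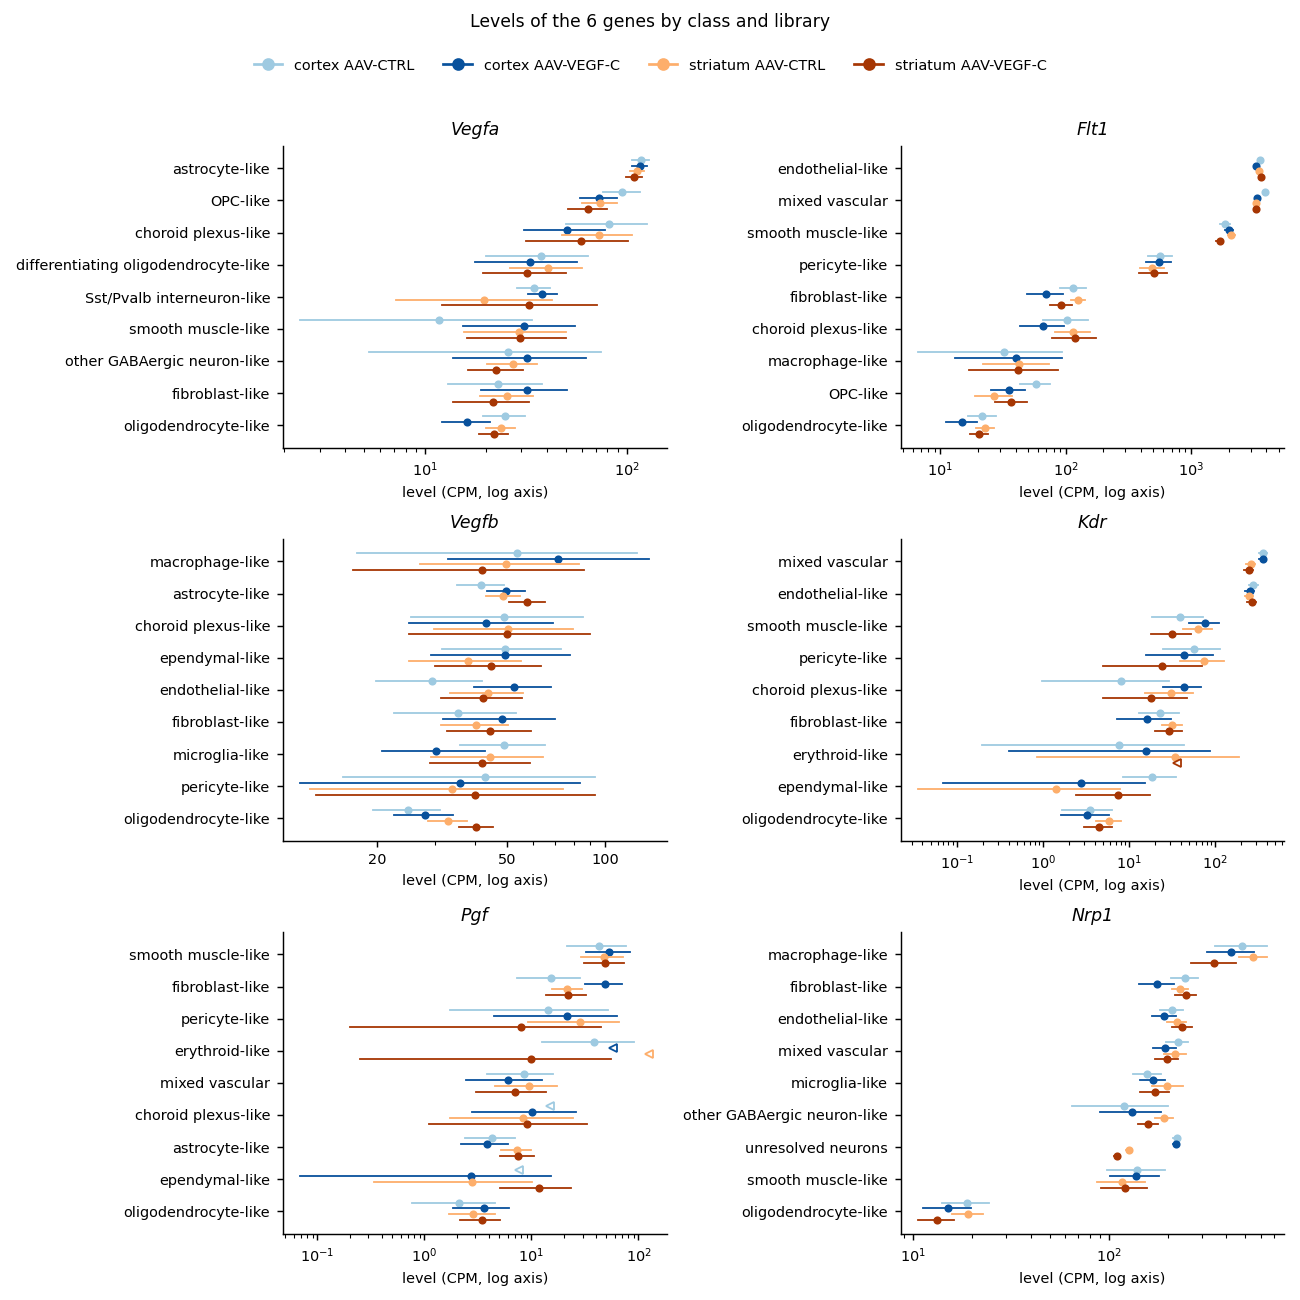
Level of each of the 6 genes (CPM, log axis) in the main classes, with 1 point per library and bars for the exact Poisson 95% interval. Open triangles mark the upper limit where a library had 0 UMIs. Vegfa is highest in astrocyte-like nuclei (109 to 118 CPM), Flt1 and Kdr in endothelial-like and mixed vascular nuclei, and Nrp1 in macrophage-like nuclei (347 to 549 CPM), while Vegfb lies between 24.8 and 71.8 CPM in the classes drawn.

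Receptor transcripts were also read within single endothelial-like nuclei thinned to 1000 UMIs. All 3 receptors had a UMI in 3.74%, 3.68%, 4.59% and 4.11% of nuclei and none of the 3 in 6.76%, 9.36%, 8.37% and 8.85%. Kdr was found in 23.1%, 24.4%, 23.1% and 21.8% of nuclei with a Nrp1 UMI and in 22.9%, 18.7%, 18.5% and 17.7% of nuclei without one. The share was higher beside a Nrp1 UMI in each library, and the intervals of each pair overlapped. Overlap of intervals, here and for Nrp1 and Flt1 below, is not a test, since nuclei of 1 library are not replicates. Joint presence beyond the separate shares was not tested for either pair of genes. Nrp1 was found in 18.0%, 16.4%, 21.4% and 20.8% of nuclei with a Flt1 UMI and in 22.2%, 4.41%, 7.41% and 10% of the 63, 68, 81 and 70 nuclei without one. The intervals of this pair did not overlap in cortex AAV-VEGF-C (13.4% to 19.8% and 0.919% to 12.4%) and in striatum AAV-CTRL (18.3% to 24.7% and 2.77% to 15.4%), and overlapped in the other libraries, with cortex AAV-CTRL in the opposite direction.

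**Figure D2:**
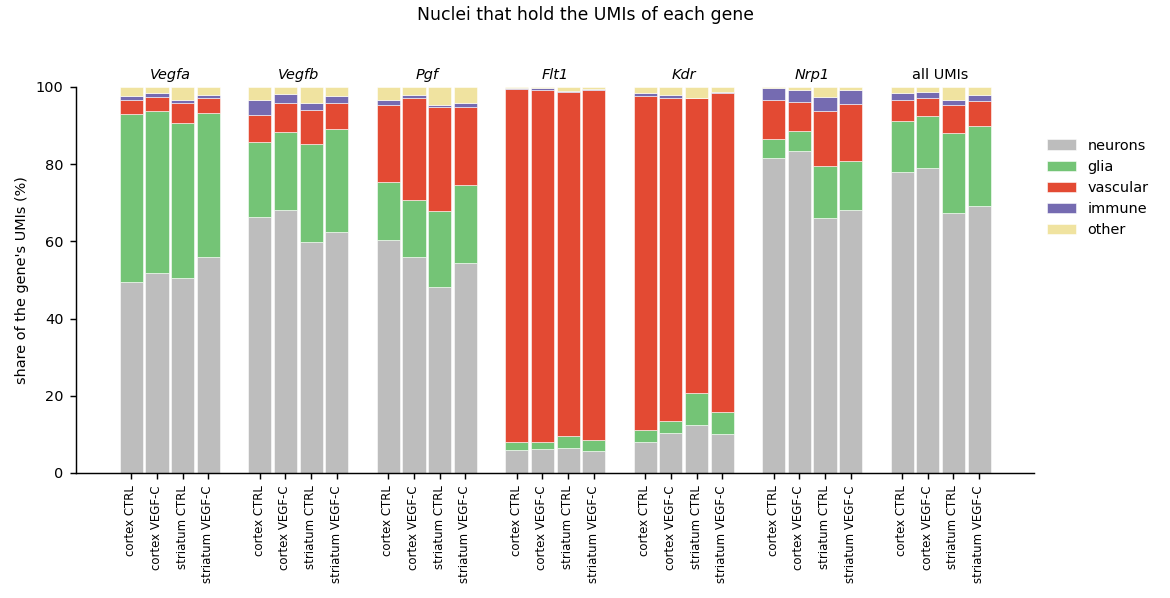
Share of the UMIs of each gene that lay in neurons, glia, vascular classes and other classes, for each of the 4 libraries, beside the share of all UMIs. Vascular classes hold 89.0% to 91.3% of Flt1 UMIs and 76.4% to 86.7% of Kdr UMIs, and glia hold 37.3% to 43.6% of Vegfa UMIs. Neurons hold 66.1% to 83.4% of Nrp1 UMIs, near their 67.4% to 79.1% of all UMIs.

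The first comparison asked whether members differed between AAV-VEGF-C and AAV-CTRL. Over all kept nuclei, 0 of 6 members lay 1.5-fold or more apart in either region label, where 5.35% of all genes with at least 20 UMIs did so in the libraries labelled cortex and 7.71% in those labelled striatum. Vegfa was at 23.3 and 22.7 CPM in the cortex pair, a log2 ratio of -0.04 (-0.15 to 0.06), and at 33.1 and 31.1 CPM in the striatum pair, a log2 ratio of -0.09. Vegfb was higher with AAV-VEGF-C in both pairs, at 22.4 and 26.2 CPM (log2 ratio 0.22, 0.12 to 0.33) and at 32.4 and 34.9 CPM (0.10, 0.02 to 0.19). Pgf was at 2.93 and 3.34 CPM and at 4.71 and 4.69 CPM, and both intervals included 0.

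Among the receptors, Flt1 over all nuclei was lower with AAV-VEGF-C in the cortex pair (158.5 and 127.5 CPM, log2 ratio -0.31, -0.36 to -0.27) and level in the striatum pair (164.1 and 163.6 CPM, -0.00, -0.04 to 0.04). In the cortex pair the part of the ratio due to levels within classes was -0.17 and the part due to the make-up of classes was -0.15. Kdr was lower in both pairs, with log2 ratios of -0.19 (-0.33 to -0.05) and -0.17 (-0.31 to -0.04). The 2 ratios differed in their parts. For Kdr the part due to levels was -0.03 and that due to make-up -0.16 in the cortex pair. In the striatum pair these were -0.16 and -0.02. Nrp1 was at 111.1 and 108.0 CPM in the cortex pair (-0.04, -0.09 to 0.01) and at 110.4 and 92.0 CPM in the striatum pair (-0.26, -0.31 to -0.21).

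AAV ratios were then read within classes. In astrocyte-like nuclei the log2 ratio of Vegfa was -0.02 (-0.21 to 0.17) and -0.05 (-0.22 to 0.13), so the 2 vectors were not separated there. In endothelial-like nuclei that of Flt1 was -0.11 (-0.18 to -0.04) in the cortex pair and 0.07 (0.01 to 0.13) in the striatum pair, and thinning brought them to -0.04 and -0.01. Kdr in the same nuclei had -0.14 (-0.39 to 0.11) and 0.08 (-0.14 to 0.30), and Nrp1 -0.14 (-0.42 to 0.15) and 0.09 (-0.15 to 0.33). The paper reports from its single-nucleus data that Kdr of endothelial cells rose with VEGF-C. It used its own clusters and a centred expression scale, so the measures differ. A rise of Kdr in both pairs was not seen here. Pgf in smooth muscle-like nuclei had 0.32 (-0.83 to 1.53) and 0.04 (-0.88 to 0.97). In endothelial-like nuclei 1 of 5 members with enough UMIs lay past 1.5-fold in the cortex pair (Vegfb, 29.3 and 52.5 CPM, log2 ratio 0.84, 0.17 to 1.53) and 0 of 5 in the striatum pair, against 11.8% and 11.9% of genes. In astrocyte-like nuclei it was 0 of 5 and 1 of 6 (Kdr, log2 ratio -1.74, at levels near those of oligodendrocyte-like nuclei), against 7.01% and 7.91%.

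Several larger AAV ratios lay in small classes. Pgf in fibroblast-like nuclei of the cortex pair was at 15.4 and 48.1 CPM, from 10 and 27 UMIs (log2 ratio 1.65, 0.55 to 2.86), whereas the striatum pair gave 0.00 (-0.81 to 0.78). Nrp1 in macrophage-like nuclei of the striatum pair was at 549 and 347 CPM (-0.66, -1.12 to -0.22), and the cortex pair gave -0.19 (-0.79 to 0.42). Nrp1 in fibroblast-like nuclei gave -0.47 (-0.85 to -0.10) and 0.10 (-0.13 to 0.32). Nrp1 in choroid plexus-like nuclei of the cortex pair was at 53.0 and 132 CPM, from 13 and 52 UMIs (1.31, 0.41 to 2.31). Flt1 in smooth muscle-like nuclei of the striatum pair was at 2096 and 1691 CPM (-0.31, -0.45 to -0.17). Over all classes with enough UMIs, the interval of Flt1 lay below 0 in 6 of 15 in the cortex pair. Among them were excitatory neuron-like nuclei at 12.4 and 8.99 CPM, under the level of the less deep oligodendrocyte-like nuclei. In the striatum pair it lay below 0 in 4 of 18 and above 0 in 1. That of Nrp1 lay below 0 in 1 of 16 and above in 1 in the cortex pair, and below 0 in 6 of 21 in the striatum pair. Whether the pairs, which share their mice, differed from each other was not tested.

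**Figure D3:**
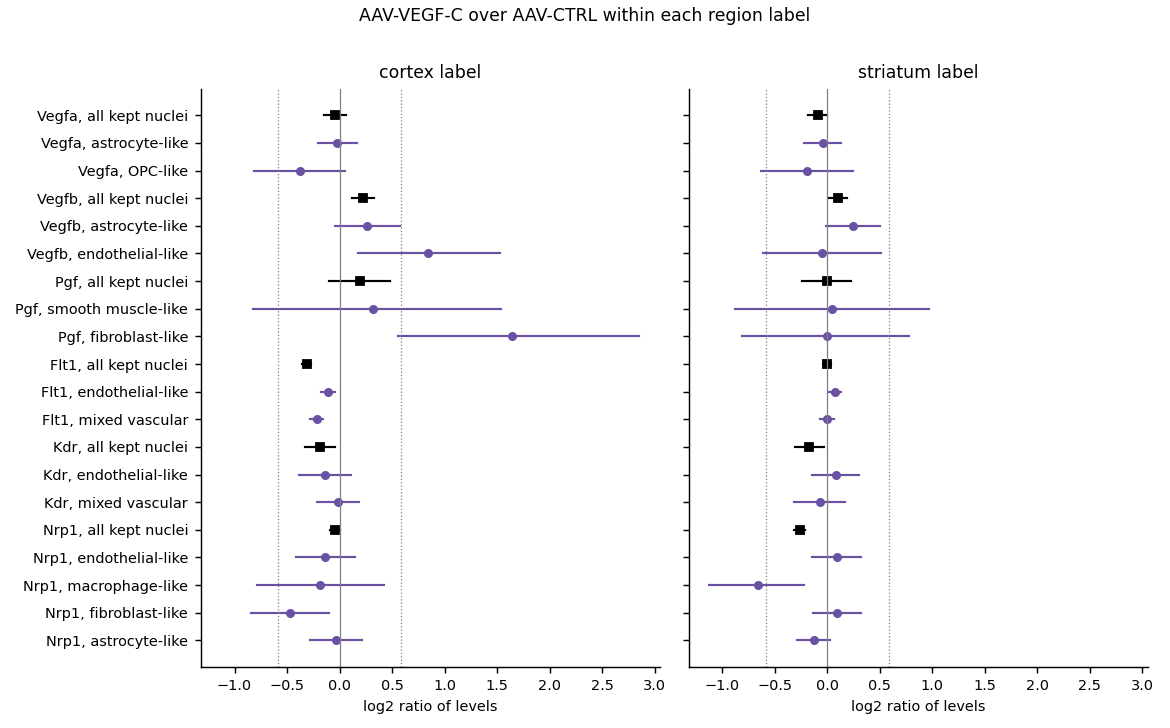
log2 ratio of AAV-VEGF-C over AAV-CTRL for each gene over all kept nuclei and within classes, for the libraries labelled cortex and those labelled striatum, with exact conditional 95% intervals for counting error. Vegfa in astrocyte-like nuclei lies at -0.02 and -0.05, and Flt1 in endothelial-like nuclei at -0.11 and 0.07.

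The second comparison set the libraries labelled striatum against those labelled cortex. Here 1 of 6 members (Pgf, in the AAV-CTRL pair) lay 1.5-fold or more apart in the AAV-CTRL pair and 0 of 6 in the AAV-VEGF-C pair, against 30.5% and 30.9% of all genes. The median log2 ratio of all genes was itself 0.19 and 0.20, and the values below are given before taking that shift away. Vegfa had log2 ratios of 0.51 (0.41 to 0.60) in the AAV-CTRL pair and 0.46 (0.36 to 0.55) in the AAV-VEGF-C pair. Vegfb had 0.53 (0.43 to 0.63) and 0.41 (0.32 to 0.50), and Pgf 0.69 (0.41 to 0.96) and 0.49 (0.24 to 0.74). The 3 ligands were thus higher in the libraries labelled striatum by more than the shift of all genes. Of the receptors, Flt1 had 0.05 (0.01 to 0.09) and 0.36 (0.32 to 0.40). Kdr had 0.05 and 0.06, and Nrp1 had -0.01 (-0.06 to 0.04) and -0.23 (-0.28 to -0.18). Flt1 in the AAV-VEGF-C pair was thus above the shift of all genes as well. With scaling by the median ratio over genes Flt1 turned to -0.13 in the AAV-CTRL pair, Kdr to -0.13 and -0.12, and Nrp1 stood at -0.19 and -0.42. The 3 ligands, and Flt1 in the AAV-VEGF-C pair, kept their direction.

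Vegfa in astrocyte-like nuclei did not follow the library ratio: its region log2 ratios there were -0.07 (-0.25 to 0.12) and -0.09 (-0.28 to 0.09). Neurons that stayed unresolved by the markers stood at 12.1 and 11.9 CPM in the libraries labelled cortex and 26.3 and 26.7 CPM in those labelled striatum. That class is filled by different clusters in each region label. Its largest cluster, with 8007 nuclei of which 228 and 268 came from the libraries labelled cortex, held 23.2, 18.2, 24.2 and 26.2 CPM, while a cluster rich in nuclei labelled cortex, led by C1ql2 and Glis3, held between 6.41 and 14.5 CPM. The part due to class make-up was 0.23 and 0.14 and the part due to levels within classes 0.31 and 0.34. Taken by cluster in place of class these were 0.25 and 0.20, and 0.29 and 0.28. Unresolved neurons held 44.3% and 45.1% of all UMIs in the libraries labelled striatum and 18.8% and 19.0% in those labelled cortex.

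Nrp1 ran in opposite directions by class. In astrocyte-like nuclei it was at 71.2, 69.5, 146 and 134 CPM, so the libraries labelled striatum were higher with no overlap (log2 ratios 1.04, 0.83 to 1.25, and 0.95, 0.75 to 1.15). The Gldc cluster held 70.1 CPM and the Agt cluster 148 CPM. Within the Agt cluster the 76 nuclei of cortex AAV-CTRL held 145 CPM, beside 156 CPM in striatum AAV-CTRL, and the 68 nuclei of cortex AAV-VEGF-C held 91.8 CPM, beside 139 CPM in striatum AAV-VEGF-C. In unresolved neurons Nrp1 was at 223, 221, 127 and 111 CPM, lower in the libraries labelled striatum, whereas in their largest cluster it was at 76.9, 87.2, 112 and 105 CPM, higher there. The part of the Nrp1 ratio due to levels was -0.18 and -0.45 by class and turned to 0.37 and 0.08 by cluster, so its direction depended on how finely neurons were divided.

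Among the receptors in vessels, Kdr in mixed vascular nuclei was lower in the libraries labelled striatum (log2 ratios -0.48, -0.71 to -0.25, and -0.54, -0.76 to -0.32), whereas in endothelial-like nuclei it had -0.15 (-0.37 to 0.08) and 0.07 (-0.16 to 0.31). The mixed vascular cluster with Vtn, Rgs5 and Cldn5 held endothelial markers at 116% and pericyte markers at 72.8% of their own-class levels. Mixed vascular nuclei had medians of 3498.5, 3320, 3089.5 and 3695.5 UMIs, against 1432, 1394, 1374 and 1666 in endothelial-like nuclei. The part of this mixture in the Kdr difference was not tested. In endothelial-like nuclei 1 of 5 members lay past 1.5-fold in each pair, namely Vegfa, at a log2 ratio of 0.76 in both and with intervals that included 0, against 22.2% and 23.6% of genes. In astrocyte-like nuclei 4 of 6 members (Pgf, Flt1, Kdr and Nrp1) lay past 1.5-fold in the AAV-CTRL pair and 3 of 5 (Pgf, Flt1 and Nrp1) in the AAV-VEGF-C pair, all higher in the library labelled striatum, against 24% of genes in each pair. In the libraries labelled striatum, Nrp1 of astrocyte-like nuclei stood against 19.1 and 13.2 CPM in oligodendrocyte-like nuclei. Flt1 stood at 28.7 and 21.8 CPM against 22.6 and 20.4 CPM, and Pgf at 7.32 and 7.43 CPM against 2.87 and 3.42 CPM. Kdr of the Agt cluster stood at 6.73 CPM in striatum AAV-CTRL, beside 5.96 CPM in the larger oligodendrocyte-like cluster. By cluster, Pgf was at 14.5, 8.34, 8.20 and 7.64 CPM in the Agt cluster, not higher with the striatum label. In the Gldc cluster it was at 3.82, 3.69, 1.41 and 5.26 CPM, higher with that label only for AAV-VEGF-C. Flt1 was at 14.5, 8.34, 29.4 and 22.9 CPM in the Agt cluster and 18.5, 14.1, 23.9 and 10.5 CPM in the Gldc cluster.

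**Figure D4:**
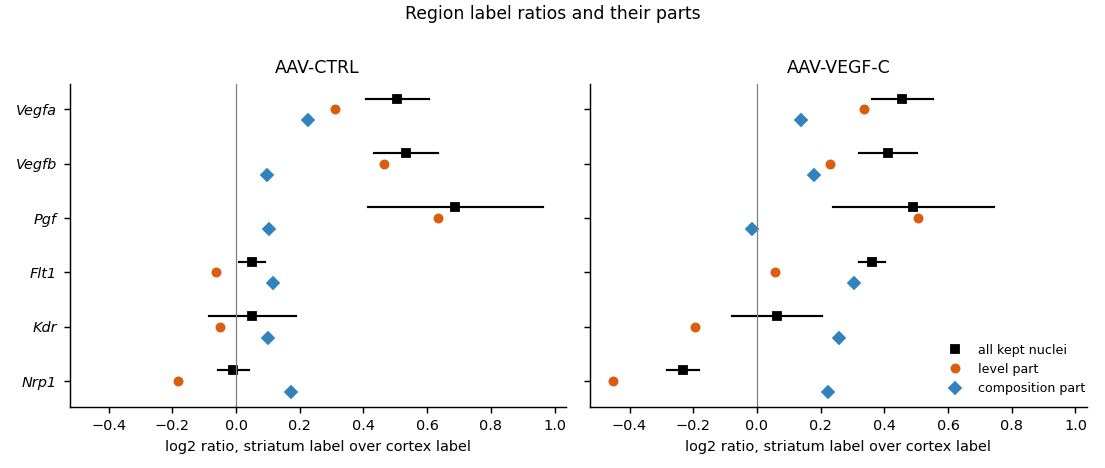
log2 ratio of libraries labelled striatum over libraries labelled cortex for each gene over all kept nuclei, with the part due to levels within classes and the part due to the make-up of classes, for AAV-CTRL and AAV-VEGF-C. The 3 ligands lie between 0.41 and 0.69 in the whole ratio, and the level part of Nrp1 is -0.18 and -0.45.

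The other genes of the pathway were read as lists in endothelial-like nuclei, chosen with earlier results of these data known. Of 30 receptor signalling genes, 28 had at least 20 UMIs. In the cortex pair 0 lay 1.5-fold or more above with AAV-VEGF-C and 3 below: Shb, an adaptor of VEGFR-2, at 41.1 and 21.5 CPM (log2 ratio -0.93), Nfatc1, a calcineurin-driven factor (-1.01), and Sos1, the Ras exchange factor (-0.62). In the striatum pair 0 of 28 lay past the fold. Of all genes in endothelial-like nuclei 11.8% and 11.9% lay past it in either direction, and the 3 of 28 were near that share. The list median was -0.09 in both pairs, beside -0.02 and -0.03 over all genes.

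Of 17 receptor modulators, 1 of 15 lay past the fold in the cortex pair (Gipc1, which binds the tail of neuropilin-1, -0.61) and 3 of 16 in the striatum pair (Dll4, the Notch ligand, -0.80, Itgav, -0.65, and Ptpn1, a phosphatase that acts on VEGFR-2, -0.61). All were lower with AAV-VEGF-C, beside the same 11.8% and 11.9% of all genes. Of 19 endothelial response genes, 3 of 11 were lower in the cortex pair (Nr4a1, an immediate early factor, at 61.6 and 22.5 CPM, log2 ratio -1.45, Hlx, -1.38, and Igfbp3, -0.89) and 3 of 13 in the striatum pair (Nr4a1, -0.77, Egr3, -0.77, and Mcam, -0.91). With at least 50 UMIs required, 1 of 7 genes lay past the fold in the cortex pair and 0 of 7 in the striatum pair. The list medians were -0.23 and -0.06. The share of all genes past the fold was 11.8% and 11.9%.

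Of 12 semaphorin partners of Nrp1, 1 of 8 was lower in the cortex pair (Sema3g, -0.86) and 5 of 11 in the striatum pair (Sema3a, -0.61, Sema3d, -0.96, Sema3e, -0.60, Sema3f, -0.69, and Plxna3, -0.77). The share of all genes with at least 20 UMIs was again 11.8% and 11.9%. With at least 50 UMIs required the striatum count was 0 of 6. With at least 20 UMIs, none of the listed genes lay past the fold in the upward direction in endothelial-like nuclei, where 567 of the 1279 genes past it in the cortex pair and 568 of 1409 in the striatum pair were higher with AAV-VEGF-C. With no filter on UMIs 1 endothelial response gene was higher in the striatum pair (Plvap, from 6 and 13 UMIs).

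In astrocyte-like nuclei, the main Vegfa class, 0 of 10 hypoxia control genes lay past the fold in either pair, with medians of 0.02 and -0.04. Of 15 hypoxia targets, 1 of 13 was higher in the cortex pair (Ankrd37, 0.62) and 0 of 14 lay past the fold in the striatum pair. Both lists were near the 7.01% and 7.91% of all genes in astrocyte-like nuclei. Among the other VEGF genes 0 of 4 lay past the fold over all nuclei. Vegfc, the native gene of the ligand carried by the vector, stood at 12.3, 11.8, 12.9 and 11.8 CPM, and whether vector transcripts were counted there is not given in the sources used here. Flt4, its receptor gene, whose domains are part of the control vector, was at 62.0 CPM in endothelial-like nuclei of the libraries pooled.

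Genes whose level over 27 classes was most like that of a member were listed as a description, from 15259 genes with at least 500 UMIs. The classes share libraries, and no p was computed. Flt1 was most like Foxf2 (Pearson r 0.961), Adgrl4 (0.961) and Zfp366 (0.959), and Kdr most like Itm2a (0.954), Slco1a4 (0.946) and Bsg (0.943). Flt1 and Kdr had 0.933 with each other. Pgf was most like Bgn (0.823), Bmp5 (0.820) and Tbx18 (0.820). Vegfa was most like Ddhd1 (0.831), Gpld1 (0.753) and Mtss1l (0.753), Vegfb like Snrpa (0.857), Khnyn (0.793) and Katna1 (0.793), and Nrp1 like Ctsc (0.770), Icam1 (0.767) and St6galnac6 (0.755). The values for Flt1 and Kdr lay above those of the other 4 members.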

How the data were processed

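Nuclei of 4 libraries had been profiled with 10x Genomics 3′ chemistry. The authors deposited raw UMI counts per gene and nucleus; per the file headers Cell Ranger 5.0.1 made them, while the submitters' processing notes name 5.1.1 and mm10. Introns count in nuclear RNA only if the counting included them, and the setting is not given in the sources used here.

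From the counts, doublets were called per library (Scrublet in scanpy 1.11.5, expected share 8%), removing 4.49%, 5.95%, 7.95% and 4.31% of nuclei, and clusters with over 40% called were left out. Counts were scaled to 10000 per nucleus; 5000 variable genes without the 6 members, 50 principal components and 15 neighbours gave Leiden clusters (leidenalg 0.10.2) at resolution 1.2, and vascular and immune nuclei were split again at 0.8. A cluster could be named when at least 3 class markers lay 2-fold above other nuclei and were found in 10% of its nuclei. These had to make up at least 35% of the list, or 45% for neurons, with further conditions on the leading genes. The naming rule was written after clusters were seen. Members and lists were chosen with earlier results of these data known. Named genes were the 6 members, list genes past 1.5-fold, and 3 genes most like each member (log2 of CPM + 5).

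Levels have exact Poisson, shares Clopper-Pearson and ratios conditional binomial 95% intervals (scipy 1.17.1); at a count of 0 the upper limit is that of the exact interval. Thinning to 1000 UMIs left out 634, 702, 1480 and 425 nuclei. Level and composition parts held class shares or class levels at their mean. The ratio code was tested on simulated data. Promoters came from RefSeq (GRCm38.p6), with windows for 6 of 6 members. Alternatives were other scalings, thinning, no doublet removal, other clusterings, means over nuclei and other UMI minimums.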

Additional observations from a re-analysis of the deposited data

Results flagged for a closer look

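Flt1 in endothelial-like nuclei had AAV-VEGF-C over AAV-CTRL log2 ratios of opposite sign in the 2 region labels, -0.111 in the libraries labelled cortex and 0.073 in those labelled striatum, with each counting interval on its own side of 0. Both were under 1.5-fold. The difference was not tested, since each value compares 1 library with 1 library. After every nucleus was thinned to 1000 UMIs the values were -0.039 and -0.014.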

How the results depend on the processing

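No paired analysis was possible because each group was 1 library and no group had replicates to leave out or to pair. Of the 24 ratios over all nuclei, 21 kept their sign under median ratio and under TMM scaling, 22 with no doublets left out, 24 with each library clustered on its own and 19 thinned. Within classes thinning kept 14 of 24, with a shift of up to 1.14. Pgf had 11 to 23 UMIs per library in smooth muscle-like nuclei, which widened its intervals. The causes of the shifts below were not tested.

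For the region log2 ratios over all nuclei, each value is given for AAV-CTRL and then AAV-VEGF-C. Scaling by the median ratio gave 0.328 and 0.268 for Vegfa, 0.354 and 0.223 for Vegfb, -0.128 and 0.172 for Flt1, -0.128 and -0.124 for Kdr and -0.187 and -0.420 for Nrp1. TMM scaling gave 0.332 and 0.258, 0.358 and 0.213, -0.125 and 0.162, -0.124 and -0.134, and -0.183 and -0.430 for the same genes. Thinning to 1000 UMIs gave 0.342 and 0.266 for Vegfa, 0.420 and 0.211 for Vegfb and 0.095 and -0.085 for Nrp1, and 0.401 for Pgf with AAV-CTRL. Flt1 with AAV-CTRL was 0.112 with no doublets left out and 0.094 with each library clustered alone.

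For the AAV ratios, Flt1 in the cortex pair was -0.214 as a mean over nuclei and -0.208 thinned. In the striatum pair it was -0.066 with no doublets left out, -0.050 with each library clustered alone and 0.037 thinned. Its endothelial-like ratio in the striatum pair reversed to -0.014 thinned. In the comparison chosen after seeing the data, in which clusters replaced classes, the level part of Nrp1 reversed to 0.370 and 0.080, and in AAV-VEGF-C that of Vegfb was 0.440, of Pgf 0.156 and of Flt1 0.129. Taking endothelial-like and mixed vascular nuclei together, also chosen after seeing the data, kept the sign of 10 of 12 ratios.

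Levels as a mean over nuclei were 3242, 3106, 3233 and 3380 CPM for Flt1 in endothelial-like nuclei, 221 CPM for Kdr there in striatum AAV-CTRL and 83.8 CPM for Pgf in smooth muscle-like nuclei of cortex AAV-VEGF-C. With each library clustered alone, cortex AAV-VEGF-C gave 3018 CPM for Flt1 and 217 CPM for Kdr.

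With no nucleus left out as a doublet, doublet-rich clusters were counted apart. Vascular classes then held 81.6%, 79.4%, 71.5% and 80.0% of Flt1 UMIs, 76.3%, 75%, 62.0% and 73.8% of Kdr UMIs, and 6.97%, 12.9% and 13.7% of Nrp1 UMIs in all but cortex AAV-CTRL. Glia held 39.8%, 38.3% and 36.0% of Vegfa UMIs in all but striatum AAV-VEGF-C and 23.2% of Vegfb UMIs in striatum AAV-CTRL. With each library clustered alone, vascular classes of cortex AAV-VEGF-C held 81.1% of Flt1, 73.8% of Kdr and 6.94% of Nrp1 UMIs, and glia of striatum AAV-VEGF-C 23.5% of Vegfb UMIs. At resolution 2, vascular classes of striatum AAV-CTRL held 89.8% of Flt1 UMIs.

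Without thinning, the shares of nuclei with a UMI were 18.3%, 18.2%, 17.8% and 19.3% for Vegfa in astrocyte-like nuclei, and in endothelial-like nuclei 30.2%, 27.9%, 27.7% and 33.6% for Kdr and 27.6%, 22.3%, 25.3% and 28.7% for Nrp1. With at least 50 UMIs, 1 endothelial response gene lay past the fold in the cortex pair and 0 in the striatum pair, with 0 semaphorin partners in the striatum pair and 0 hypoxia targets in the cortex pair. With no filter the cortex pair gave 4 semaphorin partners and 2 hypoxia targets, and 1 endothelial response gene was higher in the striatum pair.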
